A study of Homo sapiens with 12 samples.

Results

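HEYA8 cells expressing betaglycan with the single change S534A were compared with HEYA8 cells expressing betaglycan that carries both changes, S534A and S545A, and is named ∆GAG-BG. The comparison was made by sequencing the RNA of 3 libraries per group, which are 6 of the 12 libraries of the study, and the members were chosen by their labels alone. All 56269 genes of the count table were considered, and 16069 had enough counts to be tested. HEYA8 is an established human ovarian cancer cell line, labelled as high grade serous, and all groups were at resting state in RPMI-1640 medium with serum. Each betaglycan form was carried by a lentiviral vector with the fluorescent protein dTomato, and infected cells were sorted on dTomato, so a group is 1 sorted population per construct. The other groups of the study, S545A and control vector, each with 3 libraries, entered the model that estimates the spread and are given only where they bear on a gene described here.

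Betaglycan, the type III TGF-β receptor encoded by TGFBR3, is a coreceptor that binds TGF-β and inhibin at the cell surface and presents TGF-β to the signaling receptors. Its extracellular domain carries glycosaminoglycan chains, which are long sulfated sugar polymers joined to serines, and the domain can be cut off by proteases and released as a soluble form that holds ligand. Serines that carry such chains are followed by glycine. S534A keeps serine 545 as its chain site and is the form the study calls CS-BG, for chondroitin sulfate. The study's enzyme digestion found chains of both chondroitin sulfate and heparan sulfate on S534A. ∆GAG-BG has no serine left for a chain, so the comparison asks what 1 chain site on betaglycan goes with in the transcriptome.

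The attachment sites are shown because the codon of serine 545 is the designed difference between the groups, while serine 534 is changed in both. Both lie in the coding part of exon 11 (transcript ENST00000212355.8, which has 17 exons), on the minus strand of chromosome 1 (GRCh38), and residues 529 to 550 of the 851-residue protein occupy chr1:91716625-91716690. The reference coding sequence, read 5′ to 3′ from the GENCODE release 29 transcript, has the codons of serine 534 and serine 545 in capitals, the first in both constructs and the second in ∆GAG-BG alone being the codon changed to alanine.
TGFBR3 attachment region: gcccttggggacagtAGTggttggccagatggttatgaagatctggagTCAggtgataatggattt
The serines are 11 residues apart, and each capital codon is followed by a glycine codon. Counts per gene do not show which codon a read carried, so the constructs themselves could not be read from the table.

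Total counts were 16410001 to 29504297 in the S534A libraries and 21513564 to 22601056 in the libraries labelled ∆GAG-BG, and S534A library 3 was the least deep. Levels are given as CPM, which are counts scaled to the library's total by TMM, and 3 counts, the limit that a count of 0 allows for counting error, correspond to 0.1001 to 0.182 CPM. The cells expressed the ovarian markers PAX8 (193 to 295 CPM) and MECOM and the keratins KRT7, KRT8 and KRT18, while MUC16 and FOLR1 had no counts in the 6 libraries. EPCAM was at 0.367 to 1.77 CPM, and of 18 ovarian and epithelial markers listed, 10 had enough counts to be tested. Leukocyte markers PTPRC and CD3E were at or near 0. The endothelial cadherin CDH5 was at 168 to 406 CPM in all 6 libraries, with PECAM1 under 1 CPM.

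The 6 libraries did not form 2 groups by their overall expression. On the scale log2(CPM + 1), S534A library 3 differed at least 2-fold from the libraries labelled ∆GAG-BG 2 and 3 in 8 and 9 genes of the 16069 tested, against 77 genes from S534A library 1 and 775 genes from S534A library 2 of its own group. ∆GAG-BG libraries 2 and 3 had 0 genes 2-fold apart, but ∆GAG-BG library 1 differed from them in 386 and 383 genes. The chi-square of counts per degree of freedom, 1 under counting error alone, was 1.94 for ∆GAG-BG libraries 2 and 3. It was 1.4 and 1.43 for libraries 2 and 3 of S545A and control vector, and 16.4 to 74.4 for other pairs within a group. S534A library 3 was near ∆GAG-BG libraries 2 and 3 (5.38 and 4.6) but also near control vector libraries 2 and 3 (3.94 and 4.3). S534A library 2 was at least 2-fold above all other 5 libraries in 81 genes and below them in 100, ∆GAG-BG library 1 was above in 54 and below in 26, and the other 4 libraries had none. Over all 16069 genes tested, S534A library 2 was the highest of the 6 for 4906 and the lowest for 4728. ∆GAG-BG library 1 was the highest for 3766 and the lowest for 3876. Counts of highest or lowest libraries in a list are to be read beside these. Values in each library are therefore given for the genes the results turn on, and fits without these libraries are given where they move a value.

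**Figure D1:**
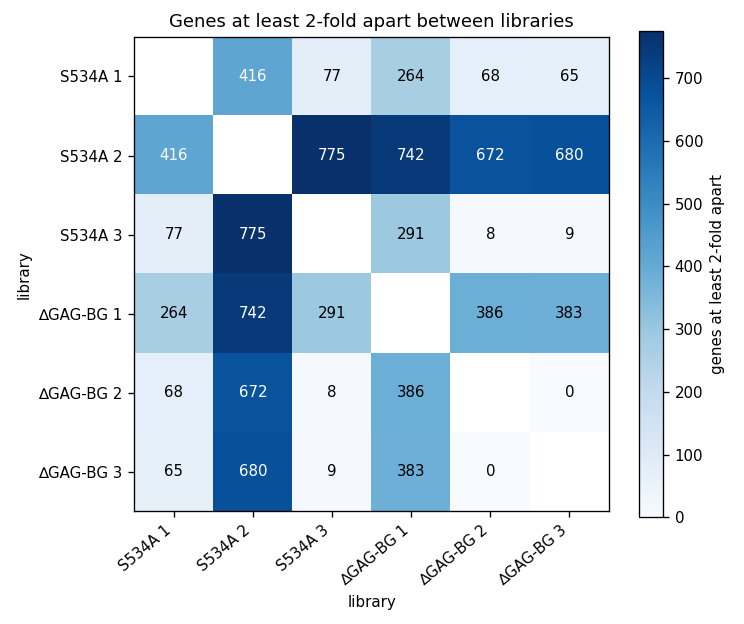
Number of genes at least 2-fold apart, on the scale log2(CPM + 1), for each pair of the 6 libraries (rows and columns are libraries, shade and number are genes). S534A library 3 is 8 and 9 genes from ∆GAG-BG libraries 2 and 3 but 775 from S534A library 2.

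The genes that separated the closest pairs are few enough to name, and were chosen after their values were seen. TGFBR3 and CHI3L2 were at least 2-fold higher in S534A library 3 than in both ∆GAG-BG libraries 2 and 3, as was the long non-coding RNA LINC01119. COL6A3, a collagen chain, RGCC, C14orf132, NHSL2, PDE1C, SLCO3A1 and EVPL passed 2-fold in the other direction in at least 1 of the pairs, as did fibronectin (FN1). COL6A3 was at 6.08, 8.74 and 4.85 CPM in S534A libraries 1 to 3 and 13.4, 11.2 and 14.2 CPM in ∆GAG-BG libraries 1 to 3, with no overlap. Of all genes tested, CHI3L2 alone was at least 2-fold apart, in the same direction, in all 9 pairs of an S534A and a ∆GAG-BG library.

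TGFBR3 was examined first, since it is the gene of the constructs. It had 476, 413 and 457 CPM in S534A libraries 1, 2 and 3, and 260, 20.3 and 21.4 CPM in the libraries labelled ∆GAG-BG. The S534A libraries were close together and above all ∆GAG-BG libraries, of which library 1 was far above the other two. Libraries 2 and 3 labelled ∆GAG-BG held less TGFBR3 than the libraries labelled control vector 2 and 3, at 259 CPM each, so the gene goes against these labels, which were used as given. ∆GAG-BG library 1, at 260 CPM, was level with those control vector libraries. All later values of the ∆GAG-BG and control vector groups rest on these labels and carry the same doubt. The log2 fold change, S534A over ∆GAG-BG, was 2.16 (standard error, SE, 1.01) with an unadjusted p of 0.0542 and an adjusted p of 0.89 by edgeR's quasi-likelihood test with Benjamini-Hochberg adjustment. Without ∆GAG-BG library 1 it was 4.43 (unadjusted p of 0.000593 by edgeR), and without any other library it was 1.67 to 2.21. Transcripts of the construct and of the cells' own gene cannot be told apart in these counts.

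With the threshold set at an adjusted p of 0.05, edgeR's test called no gene (0% of 16069). DESeq2 called 5 genes (0.0311% of the 16059 for which it gave an adjusted p), which were CHI3L2, higher in S534A, and TIMP3, NFATC4, SEMA5A and HSD11B1, all lower. At an unadjusted p under 0.05 by edgeR, 216 genes were higher in S534A (1.34%) and 265 were lower (1.65%), and with scaling by library size alone this split turned to 316 higher and 217 lower. All 3 S534A libraries were above all 3 ∆GAG-BG libraries for 431 genes (2.68%) and below them for 478 genes (2.97%), and in 23 and 45 of these the fitted difference was at least 2-fold. Counts of genes in a list, 0 included, are to be read beside these shares.

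Many of these genes depended on which library was left out. Of the 216 higher genes, 46 stayed at an unadjusted p under 0.05 without S534A library 2 and 194 without S534A library 3. Of the 265 lower genes, 98 stayed without S534A library 2 and 127 without ∆GAG-BG library 1. An unadjusted p under 0.05 with all libraries and in each of the 6 fits that left out 1 library was seen for 27 higher genes (0.168%) and 56 lower genes (0.348%). Leaving out S534A library 3, the one of its group nearest to ∆GAG-BG libraries 2 and 3, gave 890 higher and 910 lower genes. Leaving out S534A library 2 gave 97 and 215. The adjusted count was 0 in all 6 fits.

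**Figure D2:**
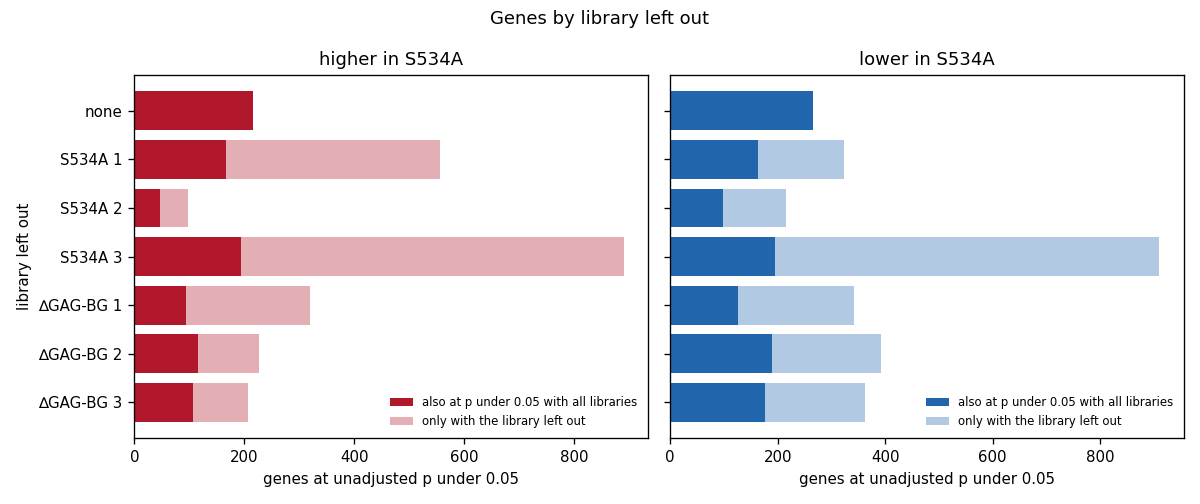
Genes at an unadjusted p under 0.05 (x axis, number of genes) by the library left out (y axis), higher in S534A at left and lower at right, with dark bars for genes that also passed with all libraries. The bars run from 97 to 890 higher genes and from 215 to 910 lower genes, and the dark part shrinks most without S534A library 2.

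TIMP3, an inhibitor of metalloproteinases that binds the extracellular matrix and inhibits ADAM17, was lower in S534A. It had 25.3, 15.2 and 26.4 CPM in the S534A libraries and 35.5, 51.8 and 50.4 CPM in the ∆GAG-BG libraries. The groups did not overlap, and ∆GAG-BG library 1, the one with the most TGFBR3 in that group, lay nearest to S534A. The log2 fold change was -1.05 (SE 0.219), with an unadjusted p of 0.000461 and an adjusted p of 0.89 by edgeR with Benjamini-Hochberg adjustment, and with an adjusted p of 0.0229 by DESeq2. It ran from -1.20 without ∆GAG-BG library 1 to -0.83 without S534A library 2, and its unadjusted p stayed under 0.05 in all 6 such fits.

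The other metalloproteinase inhibitors did not share this pattern of separated libraries. Of 5 measured inhibitors, TIMP3 was the only one at an unadjusted p under 0.05 (1.65% of all genes were lower). TIMP1 was at 110 CPM in S534A library 2 and 50.7 to 83.8 CPM in the other 5 libraries, with a log2 fold change of 0.21 (SE 0.269), and TIMP2 was at 414 to 559 CPM, with -0.07 (SE 0.144). TIMP4 and RECK also overlapped between the groups. Per kilobase of gene length, TIMP2 stood at 73.4 to 99.3 CPM and TIMP3 at 3.31 to 11.2 CPM, so TIMP3 transcripts were the rarer in every library.

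None of 12 measured ADAM proteases, the family of many sheddases, and none of 17 measured ADAMTS genes was at an unadjusted p under 0.05. Over all genes 1.34% were higher and 1.65% lower, so lists of this size can hold none at the background share. ADAMTSL1, an ADAMTS-like protein without protease activity, was the 1 gene of the ADAMTS list with separate libraries (2.68% above and 2.97% below over all genes). It was at 113, 115 and 121 CPM in S534A and 128, 123 and 129 CPM in ∆GAG-BG. ADAM17, the best known sheddase, was at 74.0, 60.0 and 80.3 CPM in S534A and 93.6, 77.6 and 82.8 CPM in ∆GAG-BG, with overlap and a log2 fold change of -0.25 (SE 0.12, unadjusted p of 0.0627 by edgeR). ADAMTS9, a matrix protease, was at 19.0 CPM in S534A library 2 and 2.73 to 3.99 CPM in the other 5 libraries. ADAM12 showed the same, with 39.1 CPM in S534A library 2 and 13.8 to 15.7 CPM elsewhere. Their log2 fold changes, 1.37 and 0.69, were 0.0059 and 0.07 without that library.

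All 7 matrix metalloproteinases that were tested had a positive log2 fold change (7948 of 16069 over all genes). Their median was 0.46 against -0.0027 over all genes. None was at an unadjusted p under 0.05 (1.34% higher and 1.65% lower over all genes). The highest library was S534A library 2 for 5 of the 7 (4906 of 16069 over all genes), and without it the median was 0.03. MMP9, a gelatinase, was at 0.747, 4.40 and 0.182 CPM in S534A and 1.09, 0.325 and 0.226 CPM in ∆GAG-BG, so its groups overlapped. Among 19 serine proteases and serpins, PRSS23, a secreted serine protease, was the single gene at an unadjusted p under 0.05 (1.34% of all genes were higher). It had 300.2, 468 and 296 CPM in S534A and 242, 266 and 265 CPM in ∆GAG-BG, with no overlap and a log2 fold change of 0.46 (SE 0.154). That difference was 0.21 without S534A library 2. PRSS23 shares exonic bases with FZD4 on the other strand. The pseudogene TMPRSS11CP and the serine protease TMPRSS6 had too few counts to be tested.

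CHI3L2, a secreted chitinase-like protein without enzyme activity, was detected in every S534A library and in no ∆GAG-BG library. It had 81, 36 and 26 counts in S534A libraries 1 to 3, or 2.88, 1.201 and 1.58 CPM, and 0 counts in all 3 ∆GAG-BG libraries. The S534A mean was 1.89 ± 0.881 CPM (SD, n = 3), at least 13.5-fold higher than the level that 3 counts give in the shallowest ∆GAG-BG library. The unadjusted p was 5.76e-06 and the adjusted p 0.0925 by edgeR with Benjamini-Hochberg adjustment, and DESeq2 gave an adjusted p of 3.33e-05. In the S545A and control vector libraries it had at most 2 counts, so it passed the filter on low counts through the S534A libraries alone. The p-values are therefore no separate support beside the counts. Of 4 tested members of the chitinase family, CHI3L2 was the only one at an unadjusted p under 0.05 (1.34% of all genes were higher).

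A further pair of genes had at least 3 counts in every S534A library and none in any ∆GAG-BG library. SYNGR4, a member of the synaptogyrin family of vesicle membrane proteins, had 34, 9 and 30 counts in S534A libraries 1 to 3, and at most 1 count in the 9 other libraries of the study. Its mean, 1.11 CPM, was at least 7.96-fold higher than 3 counts in the shallowest ∆GAG-BG library, but with all libraries it fell short of the filter on low counts and was not tested. It passed that filter in 4 of the 6 fits that left out 1 library, through the S534A libraries alone. There its unadjusted p was 5.87e-05 to 0.00233 and its adjusted p 0.476 to 0.936 by edgeR with Benjamini-Hochberg adjustment. SYNGR4 was found by its counts in these same libraries, so these p-values are no separate support. The other, a non-coding RNA gene, had 3 to 4 counts in S534A, and 3 to 5 counts in several libraries of S545A and control vector. No gene had the reverse pattern.

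**Figure D3:**
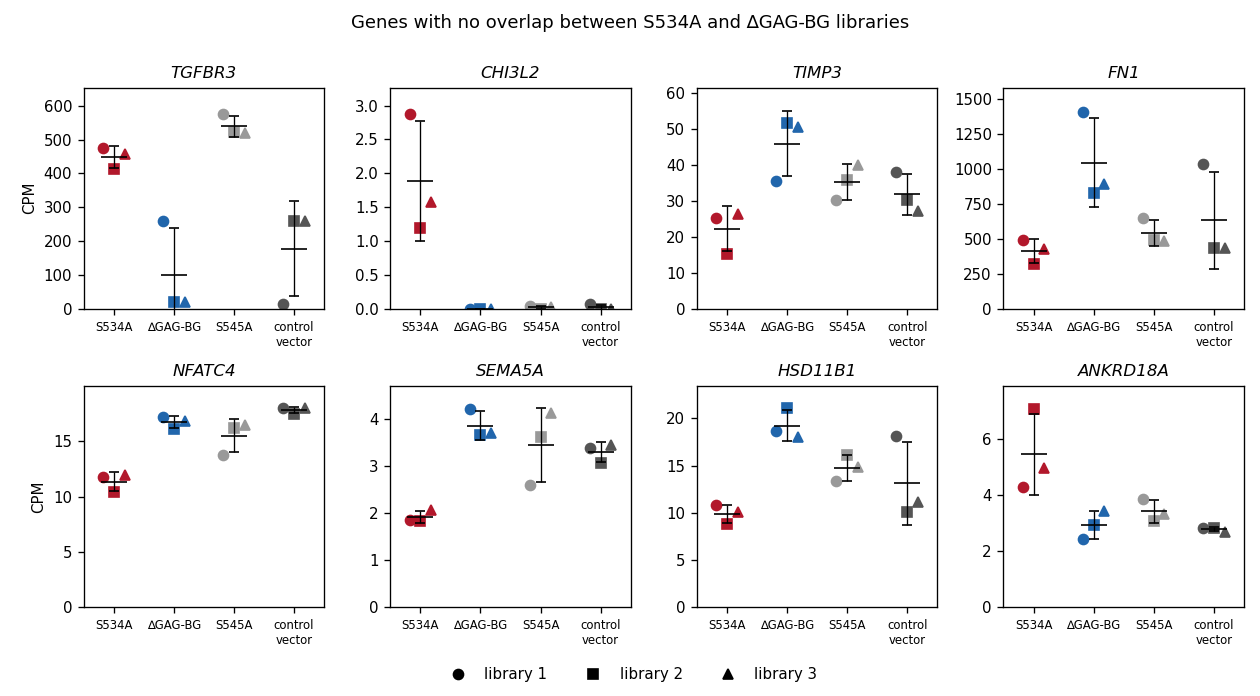
CPM (y axis, linear from 0) of 8 genes in each library of the 4 groups (x axis), with the mean and SD of 3 libraries as bars. Every S534A point lies apart from every ∆GAG-BG point, with CHI3L2 at 1.201 to 2.88 CPM against 0 and TIMP3 at 15.2 to 26.4 CPM against 35.5 to 51.8 CPM.

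Fibronectin (FN1), the matrix glycoprotein that links integrins to the pericellular matrix, was lower in S534A. It was at 493, 321 and 430 CPM in S534A and at 1412, 830 and 896 CPM in ∆GAG-BG, with no overlap. The log2 fold change was -1.33 (SE 0.335), with an unadjusted p of 0.002 and an adjusted p of 0.89 by edgeR with Benjamini-Hochberg adjustment. It was -1.05 without ∆GAG-BG library 1, in which FN1 was highest, and its unadjusted p was under 0.05 in all 6 fits that left out 1 library. The S545A libraries, at 488 to 651 CPM, also lay below all ∆GAG-BG libraries, and share those with the present comparison. The control vector libraries, at 1035, 434 and 437 CPM, spanned both groups.

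Other matrix genes stood on both sides. Of 47 collagens, laminins and matrix glycoproteins tested, 3 were higher and 2 lower at an unadjusted p under 0.05 (1.34% and 1.65% over all genes), and the median log2 fold change was -0.07. In every S534A library 3 genes of the list were below all ∆GAG-BG libraries (2.97% over all genes). COL4A1 and COL4A6, type IV collagens of basement membranes, were the only genes of the list above ∆GAG-BG in every S534A library (2.68% over all genes). COL4A1 was at 345, 588 and 315 CPM against 309, 297 and 309 CPM, and COL4A6 at 4.23, 7.24 and 3.88 CPM against 3.40, 3.34 and 3.21 CPM. S534A library 2 was the highest for both, and the log2 fold change of COL4A1, 0.45 (SE 0.185), was 0.12 without it. COL16A1, a fibril-associated collagen, overlapped between the groups.

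Few genes of mesenchymal state and few integrins differed. Of 16 tested regulators and adhesion genes of epithelial-mesenchymal transition, 2 were lower at an unadjusted p under 0.05 (1.65% over all genes), FN1 and VIM. None was higher (1.34%). FN1 is counted again among the TGF-β target genes below. Vimentin (VIM), a mesenchymal intermediate filament, was at 2343 to 2545 CPM in S534A and at 2597 to 3132 CPM in ∆GAG-BG, with a log2 fold change of -0.20 (SE 0.0876) that was -0.11 without ∆GAG-BG library 1 (unadjusted p of 0.196 by edgeR). ZEB1, a repressor of epithelial genes, was at 94.9 to 128 CPM against 127 to 144 CPM, with a small overlap. Of 16 integrins, ITGB3, the β chain of the vitronectin receptor, was the only one at an unadjusted p under 0.05, and was lower (1.65% over all genes). It had 15.96, 15.1 and 17.96 CPM in S534A and 19.0, 19.2 and 20.9 CPM in ∆GAG-BG. Its unadjusted p was 0.0591 by edgeR without ∆GAG-BG library 3 and under 0.05 without any other library. Of the 16 integrins 7 had a positive log2 fold change (7948 of 16069 over all genes). The median of the 16, -0.09, was 0.0040 without ∆GAG-BG library 3. The cadherin CDH1 had no counts in any of the 6 libraries.

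The other genes called by DESeq2 were NFATC4, SEMA5A and HSD11B1, all with little spread within a group. NFATC4, a calcineurin-dependent transcription factor, was at 11.7, 10.4 and 11.95 CPM in S534A and 17.2, 16.1 and 16.8 CPM in ∆GAG-BG. SEMA5A, a semaphorin with thrombospondin repeats, was at 1.85, 1.84 and 2.06 CPM against 4.22, 3.67 and 3.70 CPM. HSD11B1, which converts cortisone to cortisol, was at 10.8, 8.88 and 10.1 CPM against 18.6, 21.1 and 18.02 CPM. In all 3 genes the groups were separate, and ∆GAG-BG library 1 and S534A library 2 did not stand apart from their own groups.

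By edgeR, the log2 fold changes were -0.56 (SE 0.102) for NFATC4, -1.02 (SE 0.187) for SEMA5A and -0.96 (SE 0.193) for HSD11B1, with unadjusted p of 0.000146, 0.000148 and 0.000329. The adjusted p were 0.793, 0.793 and 0.89 by edgeR, and 0.0215, 0.0301 and 0.0229 by DESeq2, both with Benjamini-Hochberg adjustment. NFATC4 was at 17.5 to 18.01 CPM in the control vector libraries, near the ∆GAG-BG level, while HSD11B1 was at 10.1 to 18.2 CPM there and spanned both groups. SEMA5A shares exonic bases with an antisense gene, and whether reads were counted by strand is not given in the sources used here.

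Further genes were lower in S534A at an unadjusted p under 0.05 by edgeR whichever library was left out, each with an adjusted p of 0.89 with all libraries. PLEKHA7, an adherens junction protein, was at 0.142, 0.234 and 0.546 CPM in S534A against 2.09, 0.976 and 0.768 CPM, a log2 fold change of -2.18 (SE 0.505). Its level in S534A library 1 was near the 0.1067 CPM that 3 counts give there. GAS7, a growth-arrest gene with roles in the actin cytoskeleton, was at 2.38, 2.97 and 2.67 CPM against 4.31, 4.46 and 4.34 CPM, with -0.71 (SE 0.17). The S545A libraries, at 2.52 to 3.14 CPM, also lay below all ∆GAG-BG libraries, and the control vector libraries were at 3.25 to 4.38 CPM. TSPOAP1, which binds the mitochondrial translocator protein, and VMAC, a vimentin-associated coiled-coil protein, had log2 fold changes of -0.99 and -0.89. PLEKHA7 and TSPOAP1 share exonic bases with genes on the other strand, and VMAC with a gene on its own strand.

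Beside CHI3L2 and PRSS23, further higher genes stayed at an unadjusted p under 0.05 whichever library was left out. ANKRD18A, an ankyrin repeat gene with close copies in the genome, was at 4.30, 7.07 and 4.98 CPM in S534A against 2.45, 2.93 and 3.43 CPM, with a log2 fold change of 0.90 (SE 0.204). AK1, adenylate kinase of the cytosol, was at 7.22, 9.84 and 8.01 CPM against 5.44, 5.85 and 6.01 CPM, with 0.54 (SE 0.145). LIPE, hormone-sensitive lipase, was at 2.49, 2.60 and 2.67 CPM against 1.18, 2.04 and 1.49 CPM, with 0.72 (SE 0.211). All 3 were separate between the groups, each with an adjusted p of 0.89 by edgeR with Benjamini-Hochberg adjustment. SNX10, a sorting nexin of endosomes, DYNC1I1, a dynein intermediate chain, and C1orf53 had log2 fold changes of 0.65, 0.95 and 0.96. LINC01119, RIBC2 and the olfactory receptor pseudogene OR7E99P had 1.59, 1.68 and 1.53, and OR7E99P belongs to a family of near copies between which counting could split reads.

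The TGF-β pathway itself was measured by receptors, ligands, SMAD proteins and targets. Of 13 receptors tested, none was at an unadjusted p under 0.05 (1.34% higher and 1.65% lower over all genes). TGFBR1, the type I receptor, was at 49.3, 50.7 and 49.8 CPM in S534A against 40.3, 47.4 and 47.3 CPM, above in every library by a log2 fold change of 0.15 (SE 0.0811), while TGFBR2, the type II receptor, overlapped. Of 15 SMAD proteins and corepressors, none was at an unadjusted p under 0.05 (1.34% higher and 1.65% lower over all genes). SKI, a SMAD corepressor, was at 90.0 to 108 CPM against 81.7 to 89.9 CPM, with a log2 fold change of 0.18 (SE 0.0857).

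Of 20 tested ligands and latency proteins, 2 were lower at an unadjusted p under 0.05 (1.65% over all genes) and none was higher (1.34%). LTBP1, which anchors latent TGF-β in the matrix, was at 13.7, 14.2 and 11.5 CPM in S534A against 29.3, 19.3 and 18.3 CPM, with a log2 fold change of -0.76 (SE 0.286, unadjusted p of 0.0212 by edgeR). TGFB2, a TGF-β isoform with a high need of betaglycan for binding, was at 0.356, 0.434 and 0.425 CPM against 1.13, 0.743 and 0.452 CPM, with -0.94 (SE 0.412). Neither overlapped between the groups, and without ∆GAG-BG library 1 the values were -0.51 (unadjusted p of 0.11) for LTBP1 and -0.56 (unadjusted p of 0.224) for TGFB2 by edgeR.

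Of 24 TGF-β target genes, 3 were higher (ANGPTL4, ID2 and COL4A1) and 1 lower (FN1) at an unadjusted p under 0.05, against 1.34% and 1.65% over all genes, and the median log2 fold change was 0.33. S534A library 2 was the highest of the 6 libraries for 18 of the 24 (4906 of 16069 over all genes). Without it the median was 0.01 and the counts 0 higher and 1 lower. PMEPA1, a feedback inhibitor of the pathway, was at 73.3 CPM in that library and 19.9 to 27.4 CPM in the other 5. ANGPTL4, a secreted regulator of lipoprotein lipase, was at 2.52, 56.1 and 0.971 CPM in S534A against 4.08, 1.21 and 1.04 CPM, and its log2 fold change of 3.25 (SE 1.23) became -0.20 without S534A library 2. ID2, an inhibitor of differentiation, was at 2.47 CPM in that library and at most 0.462 CPM elsewhere.

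Genes that build glycosaminoglycan chains differed little. Of 33 tested enzymes of chain synthesis and modification, CHST12 and CHST14, sulfotransferases of chondroitin and dermatan sulfate, were higher at an unadjusted p under 0.05 (1.34% over all genes), and none was lower (1.65%). CHST12 was at 20.7, 23.2 and 20.8 CPM in S534A against 19.0, 19.2 and 18.5 CPM, with no overlap and a log2 fold change of 0.19 (SE 0.0864). CHST14 was at 23.6, 32.6 and 24.0 CPM against 19.5, 23.6 and 22.9 CPM. Without S534A library 2 no enzyme was higher and 1 was lower. Of 20 proteoglycan core proteins, none was at an unadjusted p under 0.05, and the median was -0.04.

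Of 24 genes of the FGF pathway and ERK feedback, 2 were lower and 1 higher at an unadjusted p under 0.05 (1.65% and 1.34% over all genes). Their median log2 fold change was -0.18, and it was -0.08 without S534A library 2. That library was the lowest for 10 of them (4728 of 16069 over all genes). SPRY2, a Sprouty inhibitor of receptor tyrosine kinase signaling, was at 72.2, 70.8 and 89.1 CPM in S534A against 93.0, 97.9 and 97.2 CPM, with a log2 fold change of -0.31 (SE 0.112). SPRY4, its paralog, was at 102, 111 and 132 CPM against 154, 143 and 139 CPM, with -0.34 (SE 0.132). Both were separate between the groups, but SPRY2 missed an unadjusted p of 0.05 by edgeR without S534A library 1 (0.0636) or 2 (0.0563), and SPRY4 without S534A library 1 (0.103) or 2 (0.06145) or ∆GAG-BG library 1 (0.0745).

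Other signaling lists were near the background. Of 31 Wnt pathway genes, 1 was higher and 1 lower at an unadjusted p under 0.05 (1.34% and 1.65% over all genes). ZNRF3, a ligase that removes Frizzled receptors, was the higher and LGR5, a receptor of R-spondins, the lower. LGR5 was under 1 CPM in all 6 libraries and overlapped. Of 22 AP-1 and immediate early genes, 1 was higher and 1 lower at an unadjusted p under 0.05 (1.34% and 1.65% over all genes). BTG2, an antiproliferative gene, was the higher. ZFP36, which promotes decay of AU-rich messages, was the lower, at 9.10, 8.61 and 8.49 CPM against 13.6, 11.1 and 9.76 CPM. BTG2 was at 9.07, 18.5 and 10.4 CPM in S534A against 9.34, 8.87 and 8.90 CPM, which overlapped, and without S534A library 2 its log2 fold change was 0.11 (unadjusted p of 0.447 by edgeR). ZNRF3 was separate between the groups, with 0.24 without that library (unadjusted p of 0.141). None of 21 YAP and contractile actin genes was at an unadjusted p under 0.05 (1.34% higher and 1.65% lower over all genes).

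Chaperones of the endoplasmic reticulum set apart ∆GAG-BG library 1 as the highest and, for most, S534A library 2 as the lowest, and did not separate the groups. HSPA5, the main chaperone, was at 1250, 287 and 1985 CPM in S534A and 11864, 1256 and 1228 CPM in ∆GAG-BG. ∆GAG-BG library 1 was the highest library for 22 of 24 tested chaperones and folding genes (3766 of 16069 over all genes). S534A library 2 was the lowest for 17 of the 24 (4728 of 16069). The list had a median log2 fold change of -0.80 with 4 genes lower at an unadjusted p under 0.05 (1.65% over all genes). Without ∆GAG-BG library 1 the median was 0.0015, with 0 genes lower. Leaving out ∆GAG-BG library 2 or 3 instead, which leaves library 1 with more weight, gave 17 lower genes (380 and 352 of all 16069). HERPUD1, of the degradation machinery, was at 1122.5 CPM in that library and 27.7 to 170 CPM in the other 5, and PDIA4, a disulfide isomerase, at 599 CPM against 65.1 to 135 CPM.

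The ATF4 branch of the stress response had the same order. ∆GAG-BG library 1 was the highest for 26 of 29 genes and S534A library 2 the lowest for 21 (3766 and 4728 of 16069 over all genes). The median of -0.51 was -0.18 without ∆GAG-BG library 1. DDIT3, a pro-apoptotic transcription factor, was at 208 CPM in ∆GAG-BG library 1 and 6.92 to 14.4 CPM in the other 5. Its log2 fold change of -2.97 (SE 1.21) became 0.38 without that library. TRIB3, a pseudokinase induced by ATF4, was at 305 CPM there and 37.9 to 106 CPM elsewhere. DDIT3 shares exonic bases with genes on both strands. The part of this library in the other results of the comparison was measured by leaving it out and not tested further.

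**Figure D4:**
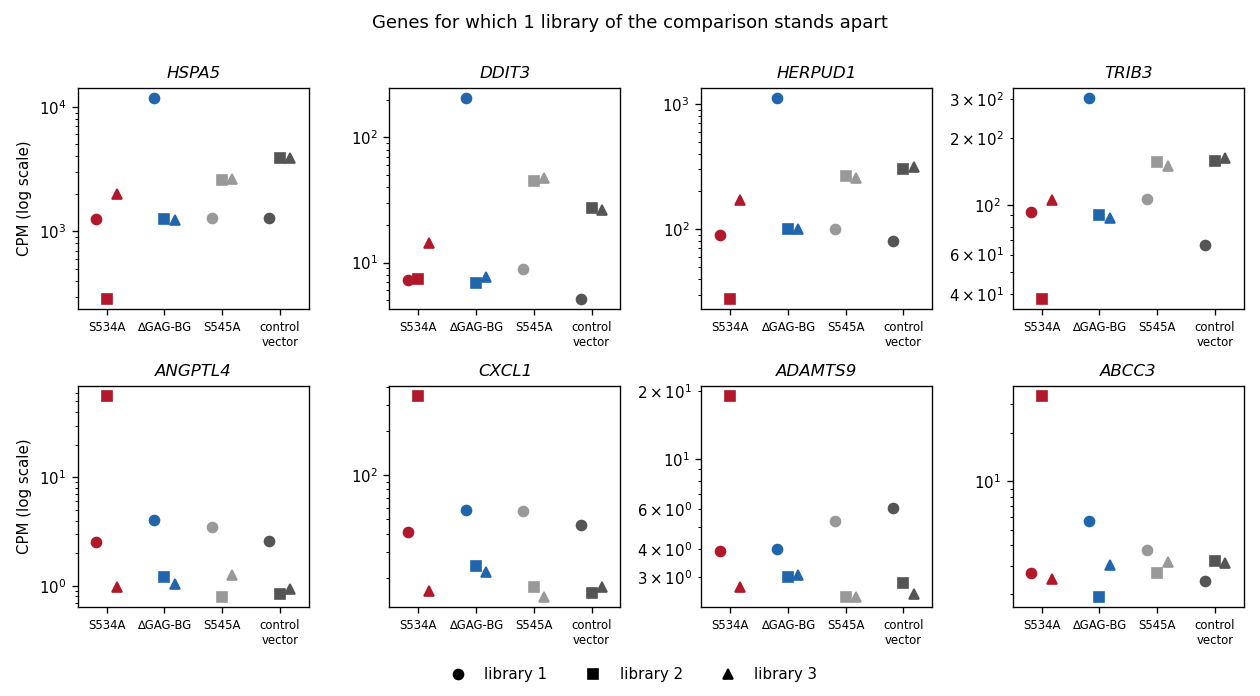
CPM (y axis, log scale) of 8 genes in each library of the 4 groups (x axis). In the top row ∆GAG-BG library 1 lies above the 5 other libraries of the comparison, with HSPA5 at 11864 CPM, and in the bottom row S534A library 2 does, with ANGPTL4 at 56.1 CPM.

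Genes of glycolysis and hypoxia, cytokines and antioxidant genes were highest in S534A library 2. It was the highest library for 30 of 33 glycolysis and hypoxia genes (4906 of 16069 over all genes). Their median of 0.22 was -0.04 without it, and 1 gene of the list was higher at an unadjusted p under 0.05 (1.34% over all genes). Of 21 cytokines and chemokines none was at an unadjusted p under 0.05, and the median of 0.21 was -0.33 without S534A library 2. CXCL1, a neutrophil chemokine, was at 41.0, 348 and 16.3 CPM in S534A and 57.7, 23.9 and 21.9 CPM in ∆GAG-BG, which overlapped. ABCC3, an exporter counted with 20 NRF2 antioxidant genes, was at 33.7 CPM in S534A library 2 and at most 5.62 CPM elsewhere. It was the 1 gene of that list at an unadjusted p under 0.05 (1.34% of all genes were higher). CXCL1 was also higher in library 1 than in libraries 2 and 3 of the ∆GAG-BG, S545A and control vector groups, and the labels give the numbers no shared batch.

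Interferon and antigen presentation genes gave 1 higher gene each at an unadjusted p under 0.05 (1.34% over all genes). IFI44, of 28 interferon-stimulated genes, was at 5.17 CPM in S534A library 2 and 0.325 to 0.995 CPM in the other 5. PSMB8, an immunoproteasome subunit and the 1 of 14 genes of class I presentation, was at 34.9 CPM there and 20.1 to 23.5 CPM elsewhere, and it shares exonic bases with PSMB9. Without S534A library 2 no gene of either list was at an unadjusted p under 0.05.

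Proliferation genes ordered the libraries rather than the groups. Of 37 DNA replication genes, 36 had a positive log2 fold change (7948 of 16069 over all genes). Their median was 0.30, with none at an unadjusted p under 0.05 (1.34% higher and 1.65% lower over all genes). ∆GAG-BG library 1 was the lowest library for 35 of them (3876 of 16069 over all genes), and without it the median was 0.07. PCNA, the replication clamp, was at 188, 312 and 145 CPM in S534A and 73.8, 179 and 171 CPM in ∆GAG-BG. Of 33 mitosis genes none was at an unadjusted p under 0.05. S534A library 2 was the lowest for 22 (4728 of 16069 over all genes), and the median turned from -0.11 to 0.12 without it. CDC20, which activates the anaphase-promoting complex, was at 110 CPM in that library and 215 to 305 CPM in the others. None of 25 genes of G1 cyclins, inhibitors and p53 targets was at an unadjusted p under 0.05 (1.34% higher and 1.65% lower over all genes).

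The remaining lists held no gene at an unadjusted p under 0.05 (1.34% higher and 1.65% lower over all genes). Their median log2 fold changes were -0.18 for 31 cholesterol and fatty acid synthesis genes, 0.12 for 53 respiratory chain subunits, 0.20 for 15 heat shock proteins, -0.35 for 6 metallothioneins and 0.02 for 78 cytosolic ribosomal proteins. Cholesterol genes had ∆GAG-BG library 1 as the lowest library for 19 of 31 and S534A library 2 for 11. Over all genes these numbers were 3876 and 4728 of 16069. The 10 tested ovarian and epithelial markers had a median of -0.10 and the 7 tested markers of fibroblasts, endothelium and leukocytes one of -0.49, which was -0.09 without S534A library 2. The reference genes RPL13A and HPRT1 had log2 fold changes of -0.12 (SE 0.0858) and 0.14 (SE 0.162) and overlapped between the groups.

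**Figure D5:**
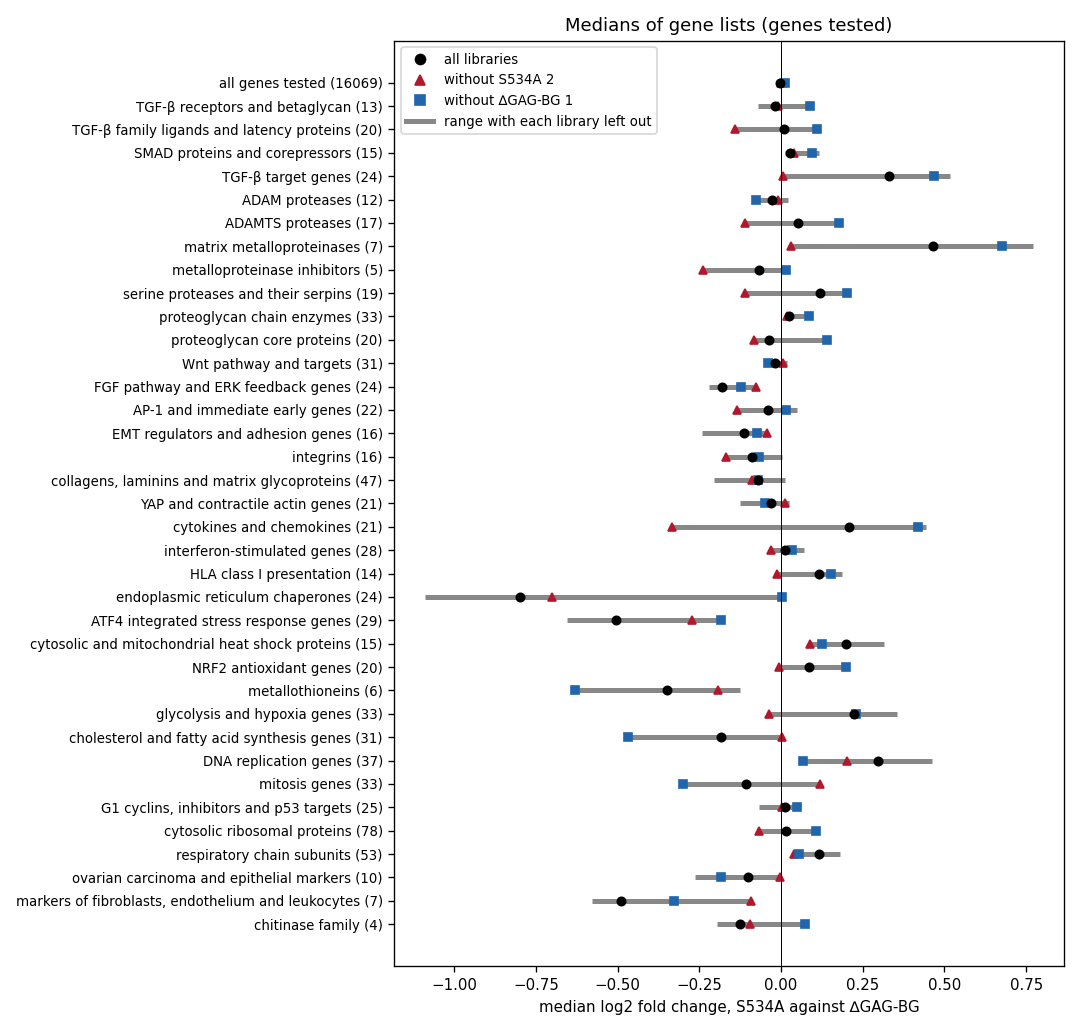
Median log2 fold change of S534A against ∆GAG-BG (x axis) for all genes tested and 36 gene lists (y axis, genes tested in brackets), with all libraries (black), without S534A library 2 (red) and without ∆GAG-BG library 1 (blue), and the range with each library left out (grey bar). The median of endoplasmic reticulum chaperones moves from -0.80 to 0.0015 without ∆GAG-BG library 1, and that of cytokines from 0.21 to -0.33 without S534A library 2.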

How the data were processed

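RNA-seq of 12 HEYA8 libraries (paired reads of 150 bp) was used, of which 3 labelled S534A and 3 labelled ∆GAG-BG were compared. The authors deposited 1 table of raw counts per gene, with no normalization. The submitters' processing notes name FastQC, Trim Galore 0.4.5, STAR 2.4, SAMtools 1.2 and featureCounts. They name mouse genome builds, which cannot apply to this human table, and 33648 of the 36113 gene symbols found in GENCODE release 29 have the same start and end there, which places it on GRCh38. The labels name a directional kit, but whether counting used strand is not given in the sources used here.

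In R 4.3.3, edgeR 4.0.16 filtered genes (filterByExpr, minimum count 10), computed TMM factors and gave robust quasi-likelihood tests from 1 model over all 4 groups, which leaves 8 residual degrees of freedom. Its biological coefficient of variation was 0.163. The p-values were adjusted by Benjamini-Hochberg over 16069 genes. Nothing says that the libraries of a group are separate cultures, so p-values measure the spread between these libraries, which may be technical. Libraries 2 and 3 of the groups other than S534A differed little beyond counting error. The 8 residual degrees of freedom may therefore overstate the number of separate libraries. The fit with libraries 2 and 3 summed takes each such pair as 1 library. The two-sided exact permutation test of 3 against 3 cannot go below 0.1, the value it gave for every gene whose libraries did not overlap. The edgeR fit, and the DESeq2 and limma-voom fits named below, were also run on simulated counts with the same spread for every gene and independent libraries. That setting lacks the uneven distances between libraries seen here, and the other alternatives and the permutation test were not simulated.

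The members, the 36 gene lists, written by hand, and the tests were chosen with earlier results of these data known, and a list was described by its counts and median. Genes named were TGFBR3, TIMP3 and CHI3L2, the proteases and reference genes of the study, those with an adjusted p under 0.05 by edgeR or DESeq2, those with the smallest p among separated genes, among genes kept with each library left out and in each such fit, and up to 4 members of each list with the smallest p. Genes that differed between the closest libraries were named after their values were seen. Alternatives were no filter, at least 10 counts in every library, scaling by library size only or by RLE, DESeq2 1.42.0, limma 3.58.1 (voom, or log2(CPM + 1) after quantile normalization), a fit of S534A and ∆GAG-BG alone, the replicate number as a block, each library left out, and libraries 2 and 3 summed in the groups other than S534A.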

Additional observations from a re-analysis of the deposited data

How the results depend on the processing

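An unadjusted p under 0.05 was the threshold for single genes, and a count within 1.5 times was taken as the same. Of genes with an adjusted p under 0.05, edgeR gave 0, DESeq2 5, and 1 (CHI3L2) came from each of the unfiltered table, quantile-normalized limma and limma-voom. Leaving out 1 library gave 0 to 1, the 1 being TGFBR3 without ∆GAG-BG library 1 in a fit of only the 2 groups. Genes higher at an unadjusted p under 0.05 numbered 216, but 514 with no filter, where more genes were tested, 69 with only the 2 groups, 82 with libraries 2 and 3 summed, and 37 to 890 with 1 library left out. Genes lower numbered 265, but 463 with no filter, 111 with only the 2 groups, and 97 to 910 with 1 library left out. Same-numbered libraries of S534A and ∆GAG-BG did not all deviate together (correlations of -0.06, -0.12 and 0.19), so the numbers were not taken as pairs. Libraries 1 of S534A, S545A and control vector were nearer to each other (chi-square of counts per degree of freedom 3.86 to 8.99) than to the other libraries of their own groups (16.4 to 67.2), and the model without a block has no term for this. The replicate block gave 59 higher and 132 lower genes and a TGFBR3 value of 3.31 (unadjusted p of 0.00971 by edgeR). TGFBR3 was past the threshold at 3.21 by limma-voom, 3.22 by quantile-normalized limma and 2.20 where library size alone set the scale, and ran from 1.67 to 4.43 with 1 library left out. DESeq2 gave no p for it. TIMP3 and CHI3L2 kept their direction and their side of the threshold in every alternative that gave them a value. CHI3L2 had 0 counts in every ∆GAG-BG library, so its direction could not change. For CHI3L2 these fits are therefore no separate support beside the counts. With 1 library left out, the log2 fold change changed sign in 10 named genes, and the cause was not tested. It ran from -0.00101 to 1.77 for ADAMTS9, -0.242 to 0.484 for TIMP1, -0.182 to 0.0295 for TIMP2, -0.099 to 2.76 for MMP9, -0.215 to 4.16 for ANGPTL4, -0.076 to 1.09 for PMEPA1, -3.51 to 0.391 for DDIT3, -0.26 to 2.57 for CXCL1, -0.437 to 2.42 for ABCC3 and -0.503 to 0.0969 for CDC20. Over named genes and their alternatives, 1168 values kept both direction and side of the threshold, 310 kept the direction and lost the threshold, 39 kept the direction and newly passed it, and 21 changed sign.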

Other observations

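Several genes outside the lists were lower in S534A at an unadjusted p under 0.05 by edgeR with all libraries and with each library left out, and were picked after their values were seen. PPARGC1A, a coactivator of mitochondrial biogenesis, was lower by a log2 fold change of -0.87 (SE, the standard error, 0.23), SYNPO2, an actin-binding protein, -1.97 (SE 0.566), and PCDH1, a protocadherin, -0.98 (SE 0.272). CDK18, a cyclin-dependent kinase, had -0.72 (SE 0.193), and LITAF, a membrane protein of late endosomes, -0.32 (SE 0.0842). Each had an adjusted p of 0.89 by edgeR with Benjamini-Hochberg adjustment.

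A few genes set ∆GAG-BG libraries 2 and 3 apart from ∆GAG-BG library 1 as well as from S534A. CYS1, a ciliary protein, was at 2.45, 2.37 and 4.67 CPM in S534A libraries 1 to 3 and 4.08, 9.15 and 8.54 CPM in ∆GAG-BG libraries 1 to 3. PDE1C, a calcium-dependent phosphodiesterase, was at 4.59, 3.10 and 5.76 CPM against 5.17, 12.7 and 10.9 CPM. RGCC, a regulator of the cell cycle, was at 2.35, 0.934 and 4.67 CPM against 1.54, 12.4 and 11.3 CPM. In all 3, ∆GAG-BG library 1 lay within the range of S534A.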
